A study of Mus musculus with 20 samples.

Results

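Follicular B cells are the recirculating, resting B cells of the spleen and lymph node. They carry the low-affinity IgE receptor CD23, encoded by Fcer2a, and surface IgD, encoded by Ighd. Marginal zone and B-1 cells, and the CD5+ leukaemic cells of the Eµ-TCL1 mouse, carry little CD23. In a spleen or node that holds an expanded B cell clone, cells with both transcripts are therefore candidates for B cells outside the clone, and the immunoglobulin V genes give a separate measure of clonality.

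Follicular-like cells were selected on measured UMIs in single-cell RNA-sequencing (scRNA-seq) of 20 libraries from 13 mice. A unique molecular identifier (UMI) marks 1 captured RNA molecule. Barcodes were kept when they held 1500 UMIs or more from 200 or more genes, with no more than 10% of them mitochondrial. Gated B cells had at least 3 UMIs of Cd79a and Cd79b together, none of Cd3d, Cd3e and Cd3g, and fewer than 20 of Jchain. Members also had 0 UMIs of Cd5 and at least 1 UMI each of Fcer2a and Ighd. This rule found 542 cells among 34057 gated B cells (1.59%) and 97181 kept barcodes, and the other 33515 gated B cells served as the comparison. Because Fcer2a, Ighd and Cd5 chose the members, their levels are given as a description without a test.

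The spleens came from 5 Eµ-PRMT5 mice, 4 Eµ-TCL1 mice and 4 Eµ-PRMT5/TCL1 mice, and the latter genotypes also gave 3 and 4 lymph nodes. The title of Eµ-PRMT5 spleen 3 names E4474, which the study's methods list as a founder. Differences between founder lines were not tested. The labels give the strain C57BL/6N for every sample, while the study's methods place the Eµ-TCL1 mice on another C57BL/6 substrain, C57BL/6 J. The Eµ-PRMT5 transgene is a human cDNA of the arginine methyltransferase PRMT5, Eµ-TCL1 is human TCL1, an oncogene that causes a CLL-like disease in mice, and double transgenic mice carry both. Each transgene is driven in B cells by an immunoglobulin heavy chain promoter and enhancer. Live cells were not sorted for lineage, nodes were sub-mandibular, tissues were taken when mice reached removal criteria, ages are not in the labels, and 7 mice gave both tissues. Wild-type mice were not analysed here, so the size of this population in a healthy spleen is not given. The mouse feature list does not hold the human transgenes. Endogenous Prmt5 lay between 17.4 and 56.9 CPM (UMIs of a gene scaled to the total of its population) in the members of the 4 Eµ-PRMT5 spleens that held any, and between 18.4 and 33.5 CPM in their other B cells.

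Total UMIs per library ran from 9348094 to 72440894, and the median per kept cell from 3541 to 13515. Of 91354 distinct barcodes, 5623 were kept in more than 1 library. Among member barcodes 80 were also kept in another library, and 0 were members in more than 1. Among 32341 T cells (at least 2 Cd3 UMIs, no Cd79a or Cd79b), 0 had UMIs of both Fcer2a and Ighd. Per library, with 100 to 4579 such T cells, a count of 0 allows a share of 0.0655% to 3.00%. The member share lay above its library's limit in the 4 Eµ-PRMT5 spleens with members, Eµ-TCL1 spleen 3, Eµ-TCL1 lymph node 1 and Eµ-PRMT5/TCL1 lymph nodes 2 and 3, and not in the other 8 libraries with members, which held 1 to 4 each. This count leaves out T cell droplets with Cd79a or Cd79b. With those kept in, a check added after seeing the data, both genes were seen in at most 2.86% of the T cells of a library. That was in Eµ-PRMT5/TCL1 lymph node 1 (5 of 175), above the 0.913% of its gated B cells that met the rule. In Eµ-PRMT5 spleen 1 it was 1.26%, against a member share of 21.4%. Droplets with Cd79a or Cd79b can hold B cell RNA, so these rates do not measure free RNA alone. Among T cells of Eµ-PRMT5/TCL1 lymph node 1 without Cd79a or Cd79b, 0 of 100 had both genes, which allows 3.00%. The share of members in that node was therefore not shown to exceed background. Without Cd79a or Cd79b, Fcer2a was seen in at most 0.193% and Ighd in at most 0.640% of the T cells of a library. Median UMIs of these T cells lay between 2722 and 5896 per library, against 3887 to 16126 in the other gated B cells of Eµ-PRMT5 spleens.

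Most follicular-like cells came from Eµ-PRMT5 spleens, which held 489 of the 542 (90.2%), and 1 library, Eµ-PRMT5 spleen 1, held 400 (73.8%). As a share of gated B cells they made up 21.4% in Eµ-PRMT5 spleen 1 (95% Wilson interval 19.6% to 23.3%), 8.80% in spleen 2, 2.81% in spleen 3, 3.25% in spleen 5 and 0 of 883 cells in spleen 4. The count of 0 in Eµ-PRMT5 spleen 4 allows a share of up to 0.340%. That spleen was also the deepest, with a median of 16126 UMIs per gated B cell, and 872 of its 875 cells with an assigned kappa V gene carried Igkv3-7. The range within this genotype therefore ran from none to above 20%.

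In the other groups follicular-like cells were rare. Eµ-TCL1 spleens 1 to 4 held 1, 1, 4 and 0 of them, or 0.110%, 0.0181%, 0.283% and 0% of gated B cells. Eµ-PRMT5/TCL1 spleens 1 to 4 held 4, 0, 2 and 3, or 0.0767%, 0%, 0.134% and 0.116%. Both groups lay below the 4 Eµ-PRMT5 spleens with members, while Eµ-PRMT5 spleen 4 at 0 overlapped them. Among lymph nodes, Eµ-TCL1 node 1 held 16 of 212 gated B cells (7.55%, interval 4.70% to 11.9%), node 2 held 1 of 1009 and node 3 held 0 of 2157. Eµ-PRMT5/TCL1 nodes 1 to 4 held 4, 11, 5 and 1, or 0.913%, 0.385%, 1.27% and 0.0599%. Intervals here cover counting error only.

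**Figure D1:**
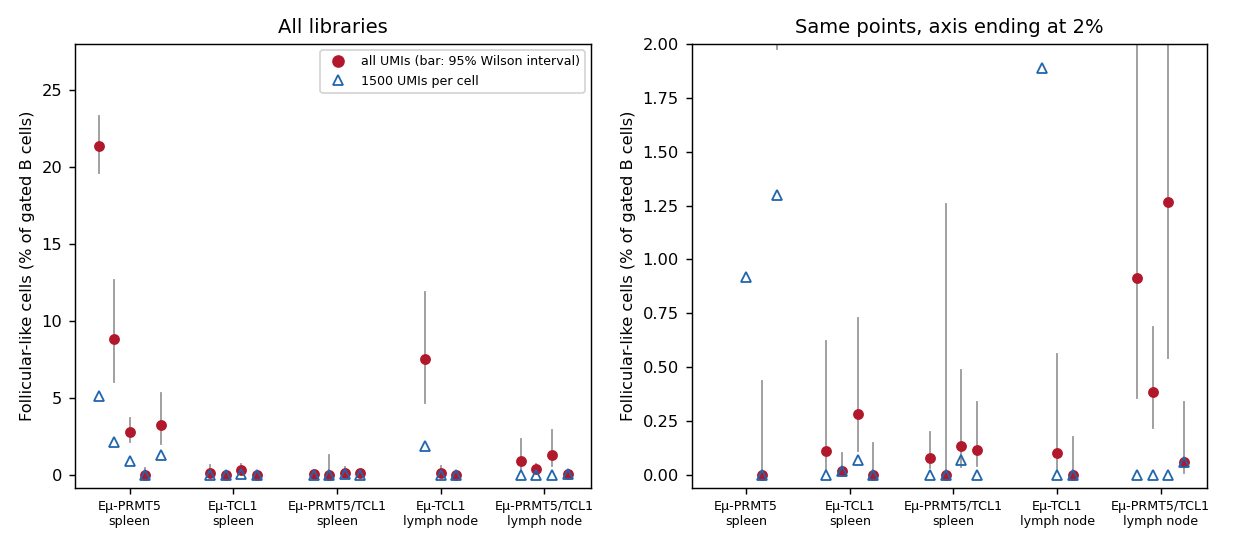
Share of gated B cells that were follicular-like in each of 20 libraries by group (circles, with 95% Wilson intervals), and the same share after each cell was thinned to 1500 UMIs (triangles); the right panel repeats the points with the axis ending at 2%. In Eµ-PRMT5 spleens the shares range from 0% to 21.4%, and after thinning the highest is 5.14%.

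Shares were compared over libraries with exact two-sided permutation tests, adjusted by the Benjamini-Hochberg (BH) method over 5 comparisons. Eµ-PRMT5 spleens had a mean share of 7.25% ± 8.53 (SD, n = 5), against 0.103% ± 0.130 (n = 4) for Eµ-TCL1 and 0.0816% ± 0.0594 (n = 4) for Eµ-PRMT5/TCL1. Eµ-PRMT5 exceeded Eµ-TCL1 by 7.15 percentage points (exact permutation p = 0.127, adjusted p = 0.212). The gap to Eµ-PRMT5/TCL1 was 7.17 percentage points in the same direction (exact permutation p = 0.127, adjusted p = 0.212). Neither difference passed the threshold of 0.05. Without Eµ-PRMT5 spleen 1 the difference from Eµ-TCL1 was 3.61 percentage points, and without spleen 4 it was 8.96 (exact permutation p = 0.0286, adjusted p = 0.0521). Both TCL1 genotypes differed by -0.0214 percentage points in spleen (Eµ-PRMT5/TCL1 minus Eµ-TCL1, exact permutation p = 0.857, adjusted p = 0.857).

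The mean in lymph nodes was 2.55% ± 4.33 (SD, n = 3) in Eµ-TCL1 and 0.656% ± 0.538 (n = 4) in Eµ-PRMT5/TCL1 mice. The difference of -1.89 percentage points did not pass (exact permutation p = 0.6, adjusted p = 0.75), and the smallest p this design allows is 0.0571. It turned to 0.606 without Eµ-TCL1 node 1. Within mice, the share was higher in the lymph node than in the spleen in 6 of 7, and 1 mouse had none in either tissue. The mean difference was 1.40 percentage points (exact sign-flip permutation p = 0.0313, adjusted p = 0.156), and 0.396 without the mouse of Eµ-TCL1 node 1. Among the nodes with the higher share, Eµ-TCL1 node 2 and Eµ-PRMT5/TCL1 nodes 1 and 4 held 1, 4 and 1 members. Their shares did not lie above the T cell limits given above. In Eµ-PRMT5/TCL1 node 2, 11 of 11 assigned members carried the leading kappa gene of its other B cells. After thinning every cell to 1500 UMIs the node was higher in 2 mice, lower in 2 and equal in 3, with a mean difference of 0.266 percentage points (exact sign-flip permutation p = 0.75).

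Many members rested on few molecules. With at least 2 UMIs of each gene asked for, Eµ-PRMT5 exceeded Eµ-TCL1 spleens by 1.84 percentage points (exact permutation p = 0.206), and the node exceeded the spleen of the same mouse by 0.517 (exact sign-flip permutation p = 0.25). Of the 542 cells, 126 (23.2%) had exactly 1 UMI of Fcer2a and 1 of Ighd, and 135 had at least 2 of each. Among all gated B cells thinned to 1500 UMIs, 132 met the rule, whether or not they were members at full depth. At 1500 UMIs the shares in Eµ-PRMT5 spleens 1, 2, 3 and 5 were 5.14%, 2.11%, 0.916% and 1.3%, so these 4 remained above every TCL1 spleen, whose highest thinned share was 0.0709%. The median member had 2, 2, 2 and 1 UMIs of Fcer2a in those spleens. Just outside the rule lay 22 gated B cells that had both transcripts together with Cd5. They were 1 of 401 cells with both transcripts in Eµ-PRMT5 spleen 1, and 8 of 19 in Eµ-PRMT5/TCL1 lymph node 2. In Eµ-PRMT5/TCL1 spleen 1 Cd5 was seen in 22.5% of gated B cells, while 99.8% of other B cells with an assigned kappa V gene carried Igkv12-89. A count of 0 for Cd5 therefore did not mark a cell as outside that main population.

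The cells just outside the rule showed how the definition divides the B cells of Eµ-PRMT5 spleens. In spleen 1, 310 gated B cells had Fcer2a without Ighd, 539 had Ighd without Fcer2a, 602 had neither and only 18 had Cd5. In spleens 2, 3 and 5 the cells with Fcer2a alone numbered 15, 34 and 14. The comparison population of spleen 1 thus held many cells that missed the rule by 1 transcript, and its summed Fcer2a level, 98.7 CPM, was above the 13.2, 7.48 and 8.76 CPM of the other B cells in spleens 2, 3 and 5. Members reached 433, 555, 415 and 628 CPM of Fcer2a in spleens 1, 2, 3 and 5. When the rule was applied to a random 50% of each cell's UMIs and levels were read from the rest, the difference of members from other B cells was 2.30 for Fcer2a and 0.57 for Ighd (log2, a description with no test). 

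Cells with Fcer2a alone resembled the members in Satb1 but less so in Ms4a4c. Satb1, a chromatin organiser, reached 287, 209, 260 and 192 CPM in members, 366, 302, 147 and 159 CPM with Fcer2a alone, and 194, 14.9, 30.8 and 7.68 CPM with neither. Cells with Ighd alone, at 219, 34.9, 55.3 and 27.2 CPM of Satb1, lay nearer to those with neither. Ms4a4c, a membrane protein gene, was at 99.3, 177 and 142 CPM in members of spleens 1, 2 and 3 and at 84.1, 43.1 and 36.7 CPM with Fcer2a alone. Cells with neither had 53.6, 10.9 and 30.3 CPM of Ms4a4c. These levels are descriptive, with only 15 and 14 cells behind the classes with Fcer2a alone in spleens 2 and 5. At 1500 UMIs per cell Satb1 was seen in 26.8%, 40%, 36.7% and 20% of members of spleens 1, 2, 3 and 5. In T cells of these spleens it was seen in 28.8%, 35.8%, 42.1% and 56.9%, so Satb1 is not particular to B cells.

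**Figure D2:**
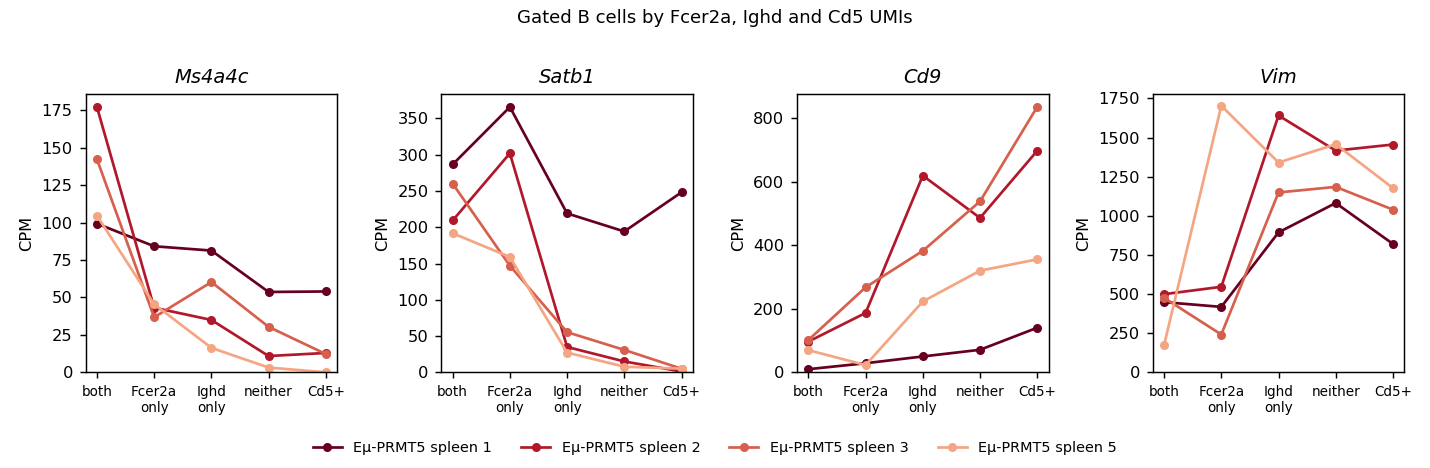
Summed counts (CPM) of Ms4a4c, Satb1, Cd9 and Vim in gated B cells of 4 Eµ-PRMT5 spleens, divided by their UMIs of Fcer2a, Ighd and Cd5; "both" marks the follicular-like cells and each line is a library. Satb1 is high in both classes with Fcer2a in spleens 2, 3 and 5, Ms4a4c is highest in the members of each spleen, and Cd9 is lowest in the members or in the cells with Fcer2a alone.

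The kappa V gene of each cell gave a measure that the rule did not use. A cell was assigned the Igkv gene with the most UMIs, if it had at least 2 and more than any other. V genes of a family share sequence, and how the counting divided their reads was not tested. The lambda genes Iglc1, Iglc2 and Iglc3 together had more UMIs than Igkc in 220 of 400 members of Eµ-PRMT5 spleen 1. In Eµ-PRMT5/TCL1 lymph node 2 this held for all 11 members, which were still assigned a kappa gene. An assigned gene therefore does not show which light chain a cell used. Any kappa gene was also assigned in 14.1% and 10.8% of T cells without Cd79a or Cd79b of Eµ-PRMT5 spleens 1 and 3. Members of Eµ-PRMT5 spleens used many kappa genes. The 373 assigned members of spleen 1 used 70 different genes, and the commonest, Igkv10-96, was in 24 cells (6.43%). The other B cells of spleen 1 were diverse too, so many kappa genes were not particular to members there. Their effective number of genes (the inverse of the summed squared shares) was 22.9, against 37.5 in members. In spleens 2, 3 and 5 it was 2.58, 4.49 and 1.67 in other B cells, against 9.62, 19.5 and 8.89 in members. In spleen 3, 47 members used 27 genes, in spleen 2, 23 used 17, and in spleen 5, 13 used 10. By UMIs of heavy chain V genes, the leading gene of members held 7.06% of 2280 in spleen 1 (Ighv1-26) and 13.8% of 276 in spleen 3 (Ighv8-8). It held 46.1% of 204 in spleen 2 (Ighv7-3) and 25.7% of 148 in spleen 5 (Ighv11-2). None of these was the leading gene of the other B cells of its spleen.

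The leading kappa gene of the other B cells was uncommon among these members. Igkv3-2 led the other B cells of Eµ-PRMT5 spleen 1, in 216 of 1353 assigned cells, and was in 8 of 373 members (2.14%, interval 1.09% to 4.17%). It also led in spleen 3 with 41.4% and was in 1 of 47 members. Igkv12-89 led in spleen 5 with 77.0% and was in 0 of 13 members, which allows up to 22.8% by the Wilson interval. Spleen 2 differed in that Igkv6-32, which led the other B cells with 60.7%, was also the leading gene of the members, in 6 of 23 (26.1%, interval 12.5% to 46.5%). Eµ-TCL1 lymph node 1 resembled the Eµ-PRMT5 spleens, with Igkv12-89 in 75.0% of other B cells and in 0 of 15 members, which used 12 genes.

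In 4 of the 7 Eµ-PRMT5/TCL1 libraries with members, most assigned members carried the kappa gene of the other B cells. In lymph node 2, 11 of 11 assigned members carried Igkv12-89 (interval 74.1% to 100%), the gene of 99.6% of its other B cells. All 4 assigned members of lymph node 1 carried Igkv1-117, and all 4 of spleen 1 carried Igkv12-89. In spleen 4 it was 2 of 3. The exceptions were lymph node 3 and spleen 3, with 0 of 4 and 0 of 2, and the 1 member of lymph node 4. In lymph node 3 and spleen 3 only 63 of 390 and 105 of 1490 other B cells had an assigned kappa gene. The leading one was in 5 and 47 of them. These kappa counts therefore do not tell whether the members were apart from the main population. By heavy chain V UMIs, Ighv1-9 led their other B cells, with 73.4% of 3550 and 89.0% of 23914. Ighv2-3 led in members of lymph node 3 (32.1% of 28) and Ighv5-9-1 in those of spleen 3 (69.2% of 26). In Eµ-TCL1 spleens 1 and 2 the 1 assigned member carried the leading gene, which was in 99.3% and 87.5% of the other B cells. In Eµ-TCL1 spleen 3 it was 1 of 3 members against 49.1%. The 1 member of Eµ-TCL1 lymph node 2 did not carry Igkv4-91, found in 86.4% of its other B cells, but Ighv12-3 held 75.9% of its 29 heavy chain V UMIs, against 98.4% in the other B cells.

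Free Igkv RNA was measured in the same T cells, also added after seeing the data. The leading gene of the other B cells was assigned in 10.2% of T cells in Eµ-PRMT5/TCL1 spleen 1, 48.8% in spleen 4, 5% in lymph node 1 and 1.48% in lymph node 2, with a median of 2, 3, 2 and 2 UMIs. Members that carried it had 13 to 50, 25 to 48, 38 to 98 and 20 to 113 UMIs of it. At least the lowest of these member counts was reached by 0 of 187, 1 of 981, 0 of 100 and 0 of 1152 T cells. With T cell droplets that hold Cd79a or Cd79b kept in, it was reached by 70 of 291, 172 of 1340, 51 of 175 and 95 of 1366, so such counts were common in droplets with RNA of both cell types. The single members of Eµ-TCL1 spleens 1 and 2 had 58 and 16 UMIs, a count reached by 1 T cell without Cd79a or Cd79b in each of these libraries, and by 558 of 3399 and 132 of 1049 with those droplets kept in. In Eµ-PRMT5 spleen 1, by contrast, the 8 members with Igkv3-2 had from 2 to 38 UMIs of it, and 5.97% of T cells were assigned it. The doublet caller did not work in Eµ-PRMT5/TCL1 spleens 1 and 4 and lymph nodes 1 and 2, where it marked under 0.5% of barcodes. Median UMIs there were 9559, 5007, 19321.5 and 7372 in members and 5565, 5021.5, 10657.5 and 4906 in other B cells. The single members of Eµ-TCL1 spleens 1 and 2 had 6302 and 5456 UMIs, against medians of 7422 and 5831.5 in other B cells. In libraries where the caller worked, it was the only test for RNA of a second B cell in member droplets. Elsewhere this was not tested. With that limit, the name residual B cells goes against the kappa gene in Eµ-PRMT5/TCL1 spleens 1 and 4 and lymph nodes 1 and 2. The same holds for the single members of Eµ-TCL1 spleens 1 and 2, and for 6 of 23 assigned members of Eµ-PRMT5 spleen 2. Those 6 had 3 to 34 UMIs of Igkv6-32, and at least 3 were in 1 of 469 T cells, or 5 of 508 with those droplets kept in. It also holds for 1 member each of Eµ-PRMT5 spleen 3 and Eµ-TCL1 spleen 3. They had 43 and 95 UMIs, reached by 0 T cells, or 20 of 2430 and 72 of 2285 with those droplets. All these cells are called here only by their rule.

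**Figure D3:**
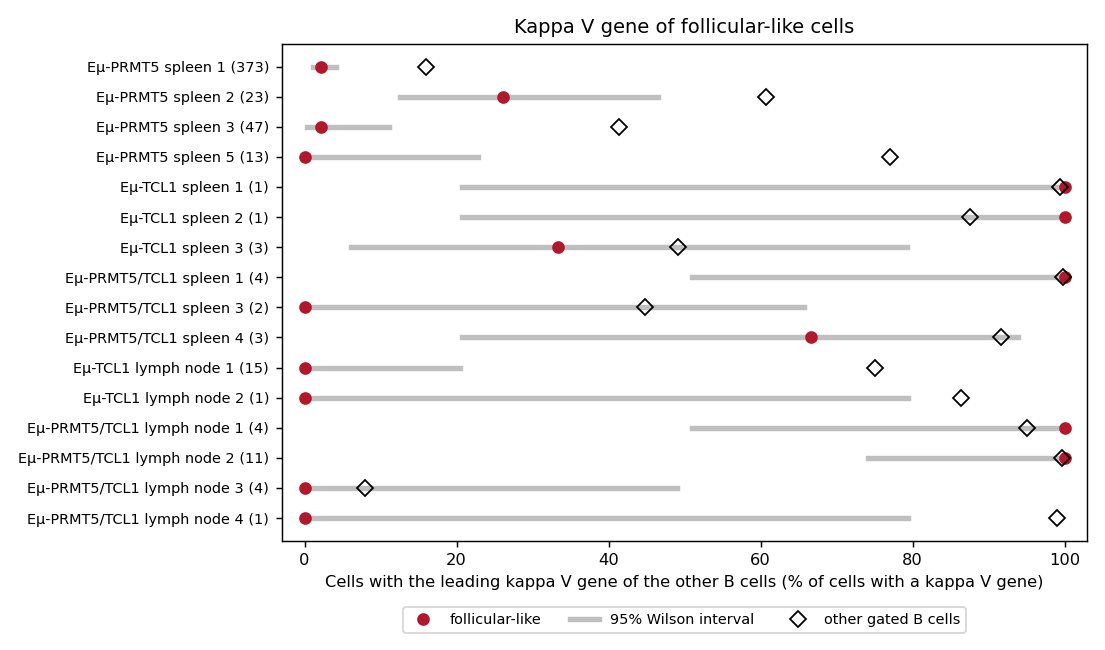
Percent of cells with an assigned kappa V gene that carried the leading gene of the other gated B cells of their library, for follicular-like cells (circles, 95% Wilson intervals, number of assigned cells in brackets) and for the other gated B cells (diamonds). Members sit far below the other B cells in Eµ-PRMT5 spleens and Eµ-TCL1 lymph node 1, and at 100% in Eµ-PRMT5/TCL1 lymph nodes 1 and 2.

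Over the 10 spleens with at least 1 assigned member, the leading gene of each population took a share of cells that was 16.1 percentage points lower in members than in other B cells (lower in 6 of 10, exact sign-flip permutation p = 0.0547). In 6 of these spleens at most 4 members were assigned, where a leading share is high by the number of cells alone. With an equal number of other B cells drawn, the difference was -20.2 percentage points (exact sign-flip permutation p = 0.0156). With 1 UMI enough to assign a gene it was -13.2 (exact sign-flip permutation p = 0.156), and by share of Igkv UMIs -11.0 (exact sign-flip permutation p = 0.188). The call thus depended on how the share was taken. In the 4 spleens with at least 10 assigned members it was -34.7 percentage points and lower in 4 of 4, where the smallest exact permutation p possible is 0.125.

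Switched heavy chain is described without a test, since class switching removes the Ighd gene from the chromosome and the rule asked for an Ighd UMI, so a low level in members follows from the rule. Counts of Ighg1, Ighg2b, Ighg2c, Ighg3, Igha and Ighe were summed and set against Ighm, the chain of IgM. They made up 52.5% of these heavy chain UMIs in the other B cells of Eµ-PRMT5 spleen 1, and 2.96% in its members. In spleen 2 the values were 65.4% and 0% (0 of 136 UMIs), in spleen 3 they were 11.3% and 1.01%, and in spleen 5 they were 1.89% and 0%. Members were lower in each of these 4 spleens, with the widest gaps in spleens 1 and 2. Ighm itself was at 581, 1095, 797 and 889 CPM in members and 661, 1080, 1928 and 1107 CPM in other B cells. Ighg2b had 1976 CPM in the other B cells of spleen 2 but only 13.2 CPM in those of spleen 3, so which isotype was switched differed between mice.

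Gene expression was compared by summing the counts of members and of other B cells in each library and fitting edgeR's quasi-likelihood test with library as a block. At least 20 cells of each population were needed, which left Eµ-PRMT5 spleens 1, 2 and 3. Of 9062 genes, 55 passed an adjusted p of 0.05 (0.607%), 6 higher (0.0662%) and 49 lower (0.541%) in members, and 569 had an unadjusted p below 0.05. The 49 include Ighg3, Ighg2c and Ighg2b, which the rule had fixed to be low. The median log2 change over all genes was -0.02. Depth did not move in 1 direction: members had a median of 4761.5, 4388 and 4334 UMIs in these spleens, against 3887, 8095 and 3936 in other B cells.

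Genes of B-1 cells and CLL formed the clearest group, though the rule itself selected against such cells. Members had 0 UMIs of Cd5 and at least 1 of Fcer2a. The other B cells included 18, 63 and 97 cells with Cd5 in spleens 1, 2 and 3, and cells with switched heavy chain. How far the lower values follow from this selection was not tested for the whole list. Of 12 listed genes 11 were tested, 5 fell, none rose, and 10 of 11 had a value below 0 (median log2 change -1.59). Lgals1 encodes the lectin galectin-1 and lies at chr15:78926725-78930465 (GRCm38). In spleens 1, 2 and 3 it was at 19.1, 64.4 and 4.06 CPM in members and 119, 351 and 303 CPM in other B cells, a log2 change of -3.09 ± 0.33 (SE, edgeR adjusted p = 0.00039). Spleen 5, which was not in the fit, had 87.2 and 358 CPM. All 4 spleens were lower in members. Against other B cells without Cd5 in spleens 1, 2 and 3 the log2 change of Lgals1 was -3.07 (edgeR adjusted p = 0.0021).

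Vim (vimentin, a cytoskeletal filament protein) was at 448, 499 and 476 CPM in members and 866, 1480 and 1135 CPM in other B cells (log2 change -1.31 ± 0.20, edgeR adjusted p = 0.0067). S100a6, a calcium-binding protein gene, was at 48.0, 346 and 81.3 CPM in members against 90.6, 1067 and 320 CPM (-1.52 ± 0.22, edgeR adjusted p = 0.0046). Ahnak, a large scaffold protein gene, fell by 1.40 on the log2 scale, and Zbtb32, a transcription repressor of memory and B-1 cells, fell by 1.69. Vim did not overlap between the populations, whereas other B cells of spleen 1 lay below members of spleen 2 for S100a6. Il10, the cytokine of regulatory B-1 cells, was at 0, 0 and 24.4 CPM in members and 2.46, 66.2 and 81.4 CPM in other B cells, which did not pass (edgeR adjusted p = 0.066). Ccnd2, encoding cyclin D2, was the 1 tested gene of the list with a value above 0 (0.70, edgeR adjusted p = 0.19).

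Marginal zone genes were mixed. Of 8 tested, Cd9 and Fcrl5 fell, none rose and the median was -0.66. Cd9, a tetraspanin of marginal zone and B-1 cells at chr6:125460266-125494791, was at 9.79, 96.6 and 102 CPM in members and 55.0, 598 and 497 CPM in other B cells (log2 change -2.51 ± 0.20, SE, edgeR adjusted p = 2.7e-05). At 1500 UMIs per cell it was seen in 1.25%, 12% and 4.08% of members and in 5.85%, 44.4% and 34.6% of other B cells, against 19.9%, 14.5% and 16.6% of T cells, so both B cell populations of spleen 1 lay under the T cells. Fcrl5, an inhibitory Fc receptor-like gene, fell by 1.51 on the log2 scale. Cd1d1, the antigen-presenting molecule that is high in marginal zone cells, had 18.2, 16.1 and 12.2 CPM in members and 16.8, 10.1 and 9.38 CPM in other B cells, and did not pass.

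Beyond the lists, the 12 genes with the lowest values included Cd80, a costimulatory ligand, Nt5e, which encodes the ecto-nucleotidase CD73, and Il2rb, a chain of the IL-2 and IL-15 receptor. Cd80 was at 3.26, 0 and 12.2 CPM in members and 24.5, 39.7 and 70.4 CPM in other B cells (log2 change -2.92 ± 0.40, edgeR adjusted p = 0.0031). Nt5e was at 4.66, 24.2 and 16.3 CPM against 36.5, 71.3 and 129 CPM (-2.78 ± 0.30, edgeR adjusted p = 0.00039). Both were lower in members of each spleen. The rule asked for an Ighd UMI and so selected against switched cells. Switched chains made up 52.5%, 65.4% and 11.3% of heavy chain UMIs in the other B cells of these spleens. How far the lower values of these genes follow from that selection was not tested. In Eµ-PRMT5 spleen 5 Nt5e was 17.4 CPM in members and 12.3 CPM in other B cells, from 1 UMI in members. Il2rb, Rcn3, Nrp2, Clec2g and an unplaced gene, AC133103.1, were also among the 12, with log2 changes between -3.01 and -2.71. Several of these calls were lost under an alternative. Rcn3 did not pass without spleen 3 (edgeR adjusted p = 0.11), Nrp2 without spleen 1, without spleen 3 or against other B cells without Cd5 (edgeR adjusted p = 0.11, 0.16 and 0.065), and Clec2g without spleen 3 or against other B cells without Cd5 (edgeR adjusted p = 0.64 and 0.063). The log2 changes behind these lost calls lay between -3.28 (Nrp2 without spleen 3) and -2.20 (Clec2g without spleen 3). In 6 libraries Clec2g had a log2 change of -0.97 and did not pass. Cd80, Il2rb, Rcn3, Nrp2 and Clec2g did not pass with separate UMIs for rule and levels. AC133103.1 lies on a scaffold outside the assembled chromosomes, so its reads may belong to a near copy elsewhere.

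The remaining genes among the 12 were Lgals1 and Cd9, given above, and Slpi (log2 change -4.30), Fgl2 (-3.82) and the haemoglobin gene Hbb-bs (-2.95). Slpi did not pass with DESeq2 or without spleen 1. Hbb-bs was at 0.466, 24.2 and 24.4 CPM in members and 2.93, 207 and 171 CPM in other B cells. Markers of other cell types moved with this comparison in spleens 2 and 3. The 6 neutrophil markers summed to 56.4 and 40.6 CPM in members of spleens 2 and 3, and to 4103 and 3294 CPM in their other B cells, but to 1948 and 903 CPM in spleen 1, and 6, 3 and 3 of the 6 had a UMI in members of spleens 1, 2 and 3. The 5 erythroid markers summed to 24.2 and 24.4 CPM against 434 and 205 CPM in spleens 2 and 3. The 6 macrophage markers summed to 134, 0 and 4.06 CPM in members of spleens 1 to 3 against 136, 197 and 172 CPM in other B cells. Of these lists, 0 of 4 neutrophil and 0 of 1 macrophage genes tested passed, and 1 of 1 erythroid. The neutrophil counts came from few cells: 7 and 19 other B cells of spleens 2 and 3, and 4 members of spleen 1, held at least 5 myeloid or erythroid UMIs, and 1 member held 4046. Their part in the result was tested by leaving them out. Without such cells 87 genes passed, 9 higher and 78 lower, including 54 of the 55. The gene missing was Hbb-bs, which then had too few counts to be tested, and Slpi moved from -4.30 to -6.35 on the log2 scale. T cell markers summed to 17.7, 32.2 and 36.6 CPM in members and 26.2, 41.7 and 45.0 CPM in other B cells; NK markers reached at most 10.7 CPM, dendritic markers 16.3 CPM and platelet markers were at 0.

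Only 2 genes outside the immunoglobulin loci rose. Il4i1, an IL-4-induced amino acid oxidase at chr7:44816387-44840809, was at 137, 64.4 and 289 CPM in members and 64.5, 10.1 and 27.4 CPM in other B cells (log2 change 2.12 ± 0.37, edgeR adjusted p = 0.019). Fchsd2, a membrane-bending adaptor gene at chr7:101092863-101284405, was at 96.0, 129 and 126 CPM in members against 56.2, 32.3 and 36.6 CPM (1.28 ± 0.23, edgeR adjusted p = 0.025). Members were higher in each of the 3 spleens for both, while spleen 5 had 69.7 and 70.1 CPM of Il4i1. Against other B cells without Cd5 neither passed, at log2 changes of 2.12 for Il4i1 (edgeR adjusted p = 0.064) and 1.27 for Fchsd2 (0.054). Fchsd2 also did not pass without spleen 3 (1.04, edgeR adjusted p = 0.12) or with separate UMIs for rule and levels (0.89, edgeR adjusted p = 0.46). The 4 other genes that rose were the V genes Igkv6-23, Igkv5-45, Igkv6-17 and Ighv1-64, while Igkv3-2, the leading gene of the other B cells in spleens 1 and 3, fell by 3.41 on the log2 scale. 

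Follicular genes that the rule did not use had mostly higher levels in members, but none passed in 3 spleens. Of 10 tested, 0 passed, 9 had a value above 0, and the median was 0.61. Cr2, the complement receptor CD21, was at 121, 48.3 and 40.6 CPM in members and 70.2, 8.96 and 13.1 CPM in other B cells (log2 change 1.14, edgeR adjusted p = 0.11). Cd55, a complement-regulating surface protein, was at 199, 250 and 150 CPM against 166, 114 and 93.7 CPM (0.56, edgeR adjusted p = 0.34). As a ratio the gap was narrowest in spleen 1 for both, where the other B cells included the 310 with Fcer2a alone.

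A fit of all 6 libraries with at least 10 members and 10 other B cells was added after seeing the data. It took in Eµ-PRMT5 spleen 5, Eµ-TCL1 lymph node 1 and Eµ-PRMT5/TCL1 lymph node 2, and 122 of 8482 genes passed (1.44%), 27 higher (0.318%) and 95 lower (1.12%). Of the 10 follicular genes 5 rose, among them Satb1 by 1.93 (log2, edgeR adjusted p = 0.0044), Ms4a4c by 1.68 (0.0035), Cr2 by 1.27 (0.040) and Cd55 by 0.91 (0.040). Ccr7, the receptor for lymph node chemokines, Cxcr5, the receptor that draws B cells to follicles, Icosl, Bach2 and Fcmr did not pass. Of the B-1 and CLL list 9 of 11 fell. Leaving out Eµ-PRMT5/TCL1 lymph node 2, whose members carried the kappa gene of its other B cells, 134 of 8513 genes passed (1.57%, 32 higher or 0.376%, 102 lower or 1.2%), with Cr2 no longer among them (edgeR adjusted p = 0.059) and 10 of 11 B-1 and CLL genes lower. In the fit of separate UMIs for rule and levels, 53 of 7400 genes passed (0.716%), 10 higher (0.135%) and 43 lower (0.581%).

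**Figure D4:**
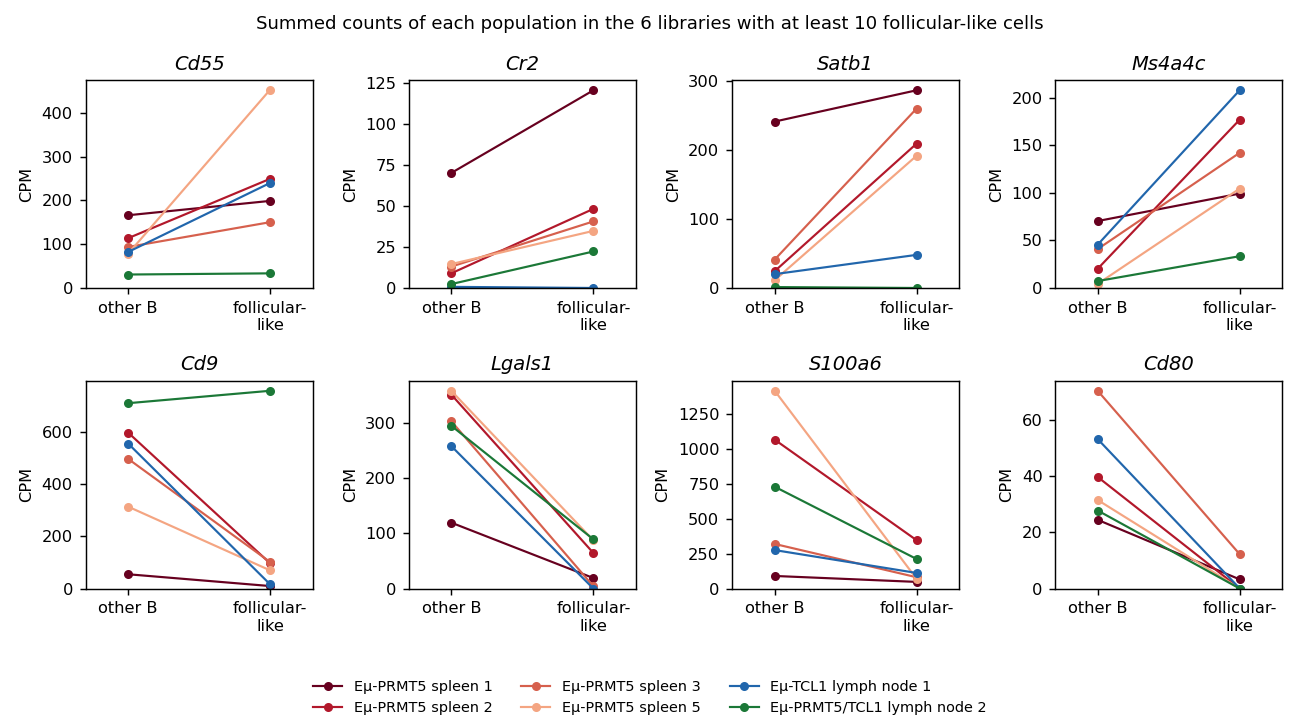
Summed counts (CPM) of 4 follicular genes (upper row) and of Cd9, Lgals1, S100a6 and Cd80 (lower row) in other gated B cells and in follicular-like cells of the 6 libraries with at least 10 members; each line joins the 2 populations of a library. In Eµ-PRMT5/TCL1 lymph node 2 Cd9 is 758 and 710 CPM in members and other B cells and Satb1 has no UMI in members, while in the other 5 libraries Cd9 is lower and Satb1 higher in members.

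Members of Eµ-PRMT5/TCL1 lymph node 2 stood apart from those of the other 5 libraries in some genes but not in others. This node and Eµ-PRMT5/TCL1 spleen 1, where all 4 assigned members also carried Igkv12-89, came from the same mouse, the only one whose label ends in RT, which the labels do not spell out. Their Cd9 level was 758 CPM, against 710 CPM in other B cells of that node, and Cd9 was seen in 63.6% of them at 1500 UMIs. Cd55 was at 33.4 and 30.8 CPM, and Satb1 had no UMI in the 11 members. In Eµ-TCL1 lymph node 1, by contrast, Cd55 was at 240 CPM in members and 82.3 CPM in other B cells, Satb1 at 48.0 and 20.1 CPM, and Cd9 at 16 and 556 CPM. Il10 was at 368 CPM in members of Eµ-PRMT5/TCL1 lymph node 2 (33 UMIs in 11 cells) and at 0 CPM in those of Eµ-TCL1 lymph node 1, against 130 and 222 CPM in their other B cells. Lgals1 was at 0 and 89.2 CPM in members of Eµ-TCL1 node 1 and Eµ-PRMT5/TCL1 node 2, against 258 and 295 CPM in their other B cells. A fit of these 2 nodes alone called 9 of 7192 genes (0.125%, 5 higher or 0.0695%, 4 lower or 0.0556%). In other values Eµ-PRMT5/TCL1 lymph node 2 went the same way as the other 5 libraries. Summed over the B-1 and CLL list, its members had 1628 CPM and its other B cells 3629 CPM. The follicular list summed to 1984 and 1311 CPM, and Cd80 was at 0 and 27.8 CPM.

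Lists for cell state gave few calls. Plasma cell genes had 1 of 6 lower in 3 spleens, Xbp1, the secretory pathway regulator, which fell by 0.92 on the log2 scale (median of the list -0.85). B cell receptor signalling genes had 0 of 17 called and a median of -0.01, MHC class II genes 0 of 9 and -0.09, quiescence and trafficking genes 0 of 11 and 0.07, and survival genes 0 of 9 and -0.01. Nucleolar genes had 0 of 10 called (median 0.12), interferon genes 0 of 7 (0.04), cell cycle genes 0 of 7 (-0.10), germinal centre genes 0 of 3 (0.36) and transitional genes 0 of 2 (0.25). Immediate early genes had 0 of 12 called (0.21). Of these, Cd69, an early activation antigen that retains lymphocytes in tissue, was at 973, 531 and 728 CPM in members and 781, 162 and 288 CPM in other B cells, a log2 change of 1.03 that did not pass (edgeR adjusted p = 0.071), and it rose in the fit of 6 libraries (0.98, edgeR adjusted p = 0.026). Mki67, a proliferation marker, was seen at 1500 UMIs in 0% of the members of each of these 6 libraries and in 0.136% to 6.12% of their other B cells; with all UMIs it was in 0.5% of the members and 0.681% of the other B cells of spleen 1. No test was run on these detection shares.

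**Figure D5:**
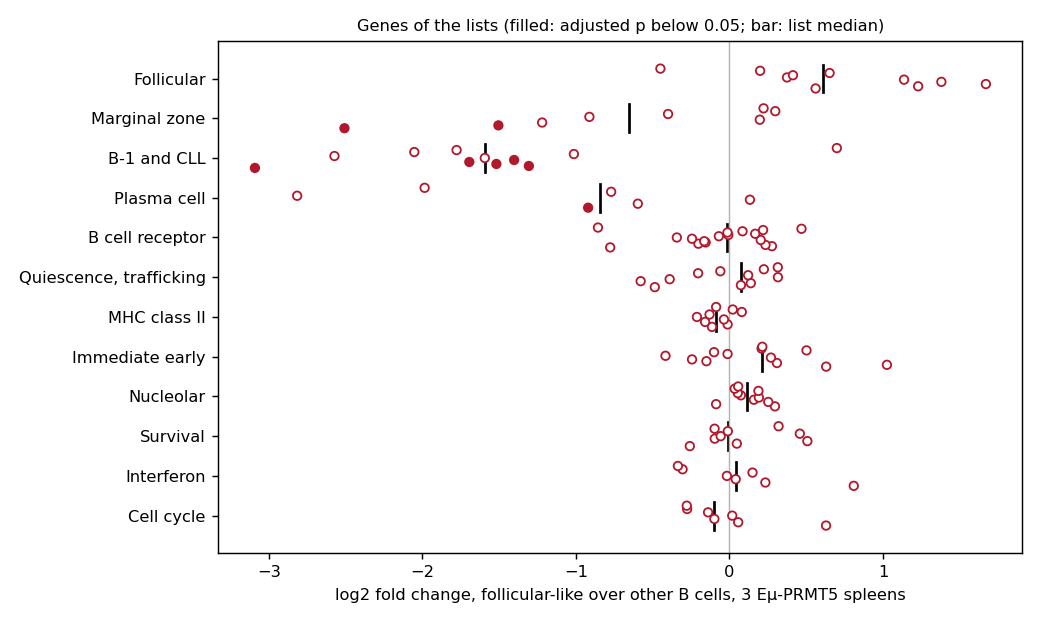
Log2 fold change of listed genes, follicular-like over other gated B cells of the same library in 3 Eµ-PRMT5 spleens; each circle is a gene, filled where the adjusted p was below 0.05, and the bar is the median of the list. The B-1 and CLL list lies left of 0 except for Ccnd2, and 9 of 10 follicular genes lie right of 0 without passing.

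Differences between genotypes or tissues within the follicular-like cells were not fitted. Beside the 3 Eµ-PRMT5 spleens no library held 20 members, so neither the levels of members nor their difference from other B cells could be compared between groups. In the groups with TCL1, 10 of 15 libraries held 1 to 5 members.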

How the data were processed

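Gene and list choices were made with earlier results of these data known. Values were UMI counts per gene and barcode, as deposited by the authors without a cell filter, from 10x Genomics 3′ v2 libraries. The study's processing notes name Cell Ranger 2.0.1, Seurat 2.2.1 and GRCm38, while the matrix headers name another Cell Ranger version. Groups and replicate numbers came from sample descriptions and mice from titles. Replicate numbers did not always mark the same mouse, so tissues were paired by mouse.

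Members were counted by the rule, shares were tested by exact permutation, and counts summed per library and population were fitted with edgeR 4.0.16 (quasi-likelihood, TMM, filterByExpr, library block, BH adjustment), leaving out the 9 rule genes and mitochondrial genes (rule genes stayed in the split fit, for description). The test was checked on simulated data. DESeq2 1.42.0, other filters and cell numbers were alternatives. Named genes had an adjusted p below 0.05, at least 20 CPM in either population and the same direction in each spleen (12 lowest, 12 highest, immunoglobulin genes apart). Coordinates are from GENCODE on GRCm38. Scrublet (scanpy 1.11.5) marked 0% to 4.01% of barcodes, under 0.5% in 16 of 20 libraries, where it did not work, and 0 members. P-values of group comparisons measure the spread between mice. Those of paired tests and edgeR fits measure the spread of the difference within a mouse or library. 1 listed gene is not reported here.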

Additional observations from a re-analysis of the deposited data

Results flagged for a closer look

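Values were tested for a sample far from the rest of its group in 17 sets of 4 to 7 values, where chance marks about 1 in 20, and 5 were marked. As a share of all kept cells, follicular-like cells made up 8.62% of Eµ-PRMT5 spleen 1, far above the other spleens of that genotype. After thinning to 1500 UMIs, the 1 remaining member of Eµ-PRMT5/TCL1 spleen 3 (0.0670% of gated B cells) and that of Eµ-PRMT5/TCL1 lymph node 4 (0.0599%) stood apart because the other 3 libraries of each group had none. The other gated B cells of Eµ-PRMT5/TCL1 lymph node 1 had a median of 10657.5 UMIs, the deepest of their group. The mouse of Eµ-TCL1 lymph node 1 had a difference between node and spleen of 7.44 percentage points, far from the other 6 mice.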

How the results depend on the processing

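Of 83 share values under alternatives, 76 kept their direction and side of the threshold and 7 reversed, all in 2 comparisons that did not pass. For Eµ-PRMT5/TCL1 minus Eµ-TCL1 spleen the difference was 0.0137 percentage points of all kept cells, 0.17 on the log2 scale, and -0.0558 to 0.0387 with a library left out. For the same genotypes in lymph node it was 0.0715 of all kept cells, 1.07 on the log2 scale, and -3.17 to 0.606 with a library left out. Without the block of paired mice (no replicate block) the tissue difference stayed at 1.40 (exact permutation p = 0.0443, adjusted p = 0.212). That form treats node and spleen of the same mouse as independent. The kappa difference was -20.2 percentage points with equal cell numbers, -23.7 (exact permutation p = 0.0156) for the leading gene of the other B cells in both populations, -13.2 (exact permutation p = 0.156) with 1 UMI, -11.0 (exact permutation p = 0.188) by share of UMIs, and -19.3 to -11.0 with a spleen left out. The 55 called genes became 264 without a filter on low counts, 120 with at least 10 cells, 122 in 6 libraries, 134 in 5, 87 without myeloid or erythroid cells, and 42 to 196 with a spleen left out (196 without spleen 1, 185 without spleen 2); the cause was not tested. DESeq2 called 47, of which 30 were among the 55, and 41 passed against other B cells without Cd5. Of 14 named genes 6 passed under every alternative that gave them an adjusted p, and none reversed. DESeq2 gave none for Fgl2, Rcn3, Cd80, Il2rb, Nrp2 and Clec2g. Not run for lack of members were fits within follicular-like cells between groups, tests of the difference between groups, gene fits with 50 cells or with the rule at 2 UMIs, a sex covariate, and 20 cells in lymph nodes or split UMIs. Depth limits every share: 132 gated B cells met the rule at 1500 UMIs, against 542 at full depth.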
